A study of Mus musculus with 40 samples.

Results

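The Pramel family genes examined here are Pramel3, Pramel4, Pramel5, Pramel6 and Pramel7, taken as every gene of the count tables that carries 1 of those 5 symbols. All 5 were found in each of the 3 RNA-seq count tables, among 55276 genes in the genotype table, 55291 in the Pramel7 table and 55276 in the time course table. They were followed through 34 RNA libraries. None was chosen for its level in these libraries by the rule itself, although Pramel7 is also the gene that the study deleted or overexpressed in part of its samples.

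All libraries came from E14tg2a, an established mouse embryonic stem cell line, grown in GMEM with fetal bovine serum and LIF, the cytokine that keeps such cells self-renewing. The genotype table held 2 libraries each of wild type (WT), DuxKO, Dppa2KO, CtbpDKO, Ctbp_DuxTKO and DKO_Dppa2KO cells. CtbpDKO cells lacked the CtBP corepressors, Ctbp_DuxTKO cells lacked Dux as well, and DKO_Dppa2KO cells lacked Dppa2 on the CtbpDKO background. For that last group the description label was used, because the title and genotype labels named Dppa2 and Dux instead. The Pramel7 table held 4 other WT libraries, 2 other DuxKO libraries, and 2 each of P7KO (Pramel7 deleted), P7OE (Pramel7 overexpressed) and DuxKO_P7OE cells. The time course table held CtbpDKO cells whose titles carry "Dox", with 2 libraries each at days 0, 3, 9, 12 and 18. The labels did not say what doxycycline drove, which promoter drove the Pramel7 transgene, or whether a line was 1 clone. They also did not say that replicates were separate cultures, so the p-values measure the spread between these libraries, which may be technical.

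PRAME family proteins are leucine-rich repeat proteins that have multiplied into large gene clusters in the mouse and are expressed mainly in the germ line and the early embryo. Several of them serve as substrate receptors of Cullin 2 ubiquitin ligases. PRAMEL7 is known for high expression in the inner cell mass and for directing UHRF1, the protein that brings the maintenance methyltransferase DNMT1 to replicated DNA, to degradation, with loss of DNA methylation. Pramel6 and Pramel7 have both been linked to LIF and STAT3 signalling in embryonic stem cells. CtBP proteins are corepressors recruited by factors such as ZEB1, Dux is the transcription factor of the mouse 2-cell embryo, and Dppa2 is a chromatin factor that acts upstream of Dux.

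The smallest and largest library totals were 19944644 and 36025046 counts among the genotypes, 10123058 and 30135341 with Pramel7 altered, and 16674526 and 30169626 over the time course. Levels are given as CPM, the counts per 1000000 counts of the library after TMM scaling, and a gene was called where the edgeR quasi-likelihood test gave a Benjamini-Hochberg adjusted p below 0.05. Ctbp1 stood at 61.1 to 82.5 CPM in the Ctbp-intact libraries of the genotype table and at no more than 0.200 CPM in the 6 Ctbp-deleted ones, DKO_Dppa2KO included. The Ctbp2 transcript was lower in those 6 libraries but still counted, at 36.5 to 43.8 CPM against 187 to 236 CPM. Dppa2 stood at 57.3 to 60.9 CPM in WT, 29.1 to 33.3 CPM in Dppa2KO and 19.7 to 21.3 CPM in DKO_Dppa2KO. The embryonic stem cell markers Pou5f1, Sox2, Nanog, Zfp42 and Esrrb summed to 1320 to 2580 CPM in every library of the genotype and Pramel7 tables. They were not constant between genotypes. CtbpDKO against WT called 3 of the 5 lower and 1 higher, with sums of 1680 to 1740 against 1970 to 2060 CPM, beside 26.1% of all genes. In DKO_Dppa2KO against Dppa2KO 4 of the 5 were called lower and 0 higher, beside 30.4% of all genes. In such bulk RNA, fewer expressing cells and less RNA per cell cannot be told apart.

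The 5 genes lie at 3 places of the mouse genome (RefSeq annotation of GRCm38.p6, the same assembly as mm10). Pramel7 (chr2:87489088-87492418, minus strand) and Pramel6 (chr2:87506565-87510865, plus strand) are neighbours that point away from each other, with 14146 bases between them, inside a cluster of olfactory receptor genes. Pramel4 (chr4:144059125-144069327, plus strand) and Pramel5 (chr4:144270633-144280466, minus strand) lie 201305 bases apart within a PRAME cluster, and Pramel3 (chrX:135302289-135312636, plus strand) is X-linked. RefSeq start-site windows of 300 bases, 250 before and 50 after the start, were matched for all 5 genes. For Pramel3 the start of the window lies inside the gene as placed above, so 223 bases of the window precede that gene. The Pramel4 and Pramel5 windows were identical at 267 of 280 aligned bases (95.4%), and how counting treated reads shared by such copies is not given in the sources used here. The sequences just before Pramel7 and Pramel6 are shown because these 2 neighbours gave most of the results, with CpG sites, where DNA methylation is placed, in capitals.
Pramel7, chr2:87492419-87492668, minus strand: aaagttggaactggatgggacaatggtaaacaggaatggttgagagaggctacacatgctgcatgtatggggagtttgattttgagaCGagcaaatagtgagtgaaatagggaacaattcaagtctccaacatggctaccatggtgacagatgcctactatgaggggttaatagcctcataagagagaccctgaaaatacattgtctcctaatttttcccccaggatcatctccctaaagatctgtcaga
Pramel6, chr2:87506315-87506564, plus strand: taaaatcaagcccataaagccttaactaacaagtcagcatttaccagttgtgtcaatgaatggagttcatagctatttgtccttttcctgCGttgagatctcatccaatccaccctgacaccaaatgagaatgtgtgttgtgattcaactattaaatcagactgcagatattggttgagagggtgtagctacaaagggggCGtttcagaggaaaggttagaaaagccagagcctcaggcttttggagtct
The 300-base window of Pramel7 held 1 CpG and that of Pramel6 held 3, against a median of 7 over 32817 windows. Windows with no more CpG sites than these made up 14.1% and 31.4% of all. Pramel5 had 0 CpG sites (5.43%), Pramel4 had 2 (23.3%) and Pramel3 had 9 (56.6%).

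Both strands of each window were searched for 4 short motifs tied to factors of the study. They were the Dux core GATTNNATC (in 1.58% of all windows), the Zscan4 motif TGCACAC (4.4%), the STAT motif TTCNNNGAA (8.29%) and the ZEB E-box CAGGTG (20.2%). None of the 4 letter strings was found in the windows of Pramel4, Pramel5, Pramel6 or Pramel7. Pramel3 had 2 E-box matches, shown in capitals in the sequence before that gene, the first on the opposite strand.
Pramel3, chrX:135302066-135302288, plus strand: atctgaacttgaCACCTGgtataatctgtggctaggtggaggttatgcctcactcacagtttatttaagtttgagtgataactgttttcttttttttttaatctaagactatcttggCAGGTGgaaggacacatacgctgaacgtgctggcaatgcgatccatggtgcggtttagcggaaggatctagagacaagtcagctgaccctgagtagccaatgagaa
A match describes the letters only, and a lack of matches says nothing about sites elsewhere.

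Loss of CtBP raised Pramel7 and Pramel6 from the edge of detection. Pramel7, the UHRF1-directed ligase receptor, had 0 and 2 counts in WT and 67 and 79 counts in CtbpDKO, or 2.04 and 2.21 CPM. The 2 CtbpDKO libraries lay close together and far above both WT libraries. The ratio of CPM was 64.4 (95% counting interval 17.5 to 537), the fitted log2 difference was 5.84, and the adjusted p was 0.00019 by edgeR's quasi-likelihood test. Pramel6, the divergent neighbour, had 0 and 2 counts in WT against 11 and 19 in CtbpDKO, or 0.336 and 0.531 CPM, again without overlap. Its ratio was 13.2 (3.36 to 114), with a log2 difference of 3.56 and an adjusted p of 0.0211 by the same edgeR test. That call was lost without WT replicate 1 (adjusted p 0.119) or without CtbpDKO replicate 2 (0.095). Both genes thus belonged to the 26.1% of 21193 tested genes called in this comparison.

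**Figure D1:**
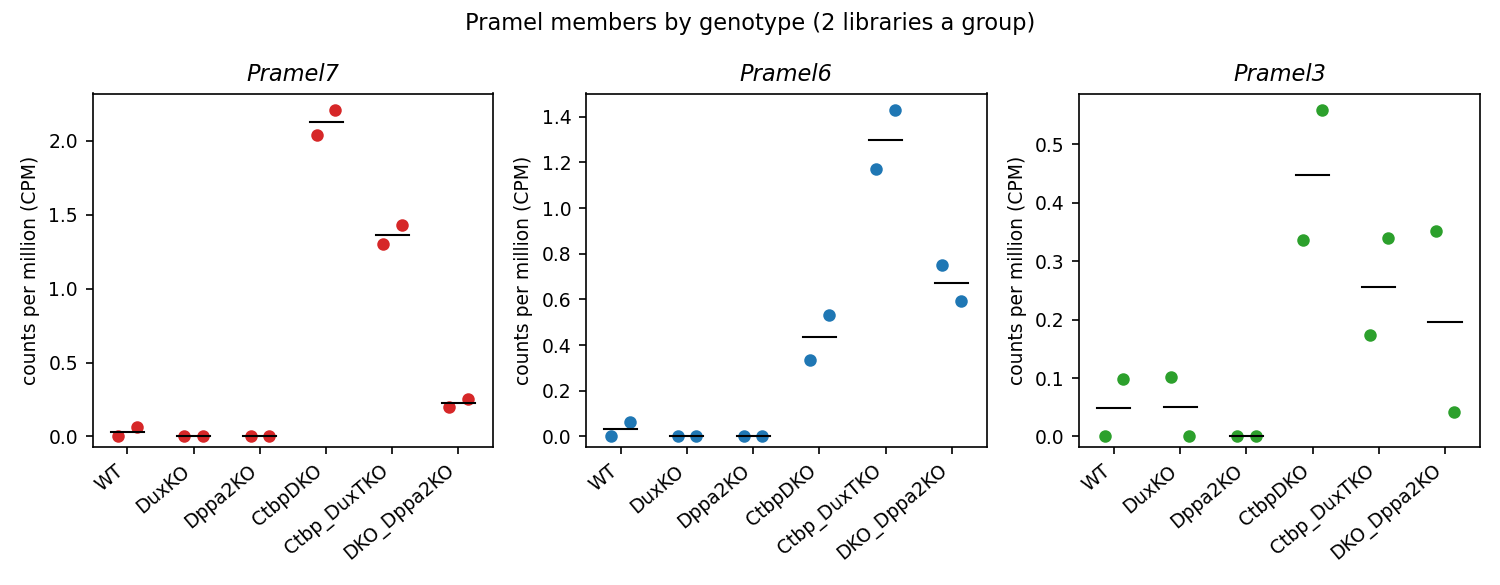
Level (CPM, TMM-scaled, linear axes that differ between panels) of Pramel7, Pramel6 and Pramel3 in the 6 genotypes of the genotype table; each point is 1 library, 2 a group, and each bar is the group mean. Pramel7 is highest in CtbpDKO (2.04 and 2.21 CPM), whereas Pramel6 is highest in Ctbp_DuxTKO (1.17 and 1.43 CPM).

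Pramel3, the X-linked member, had 0 and 3 counts in WT and 11 and 20 in CtbpDKO. The groups did not overlap and the ratio was 9.11 (2.84 to 46.6), but the edgeR adjusted p of 0.0991 did not pass. Pramel4 gave 4 counts in CtbpDKO replicate 2 and 0 in the other 11 libraries. Pramel5 gave 2 and 1 counts in CtbpDKO and 0 elsewhere in the genotype table. Neither passed the filter on low counts, so 3 of the 5 members were tested in the genotype table. CtbpDKO against WT called 26.1% of all genes. Among the other markers, 2 of 4 for primitive endoderm, 1 of 3 tested for trophoblast and 1 of 3 tested for fibroblasts were called higher. None of these markers was called lower. Their summed levels went from 9.85 to 10.2 CPM in WT to 15.6 to 16.4 CPM for primitive endoderm, from 6.23 to 6.27 to 15.3 to 15.5 CPM for trophoblast, and from 1.74 to 2.18 to 11.3 to 11.5 CPM for fibroblasts, with Postn at 0 in both groups and Elf5 at 0 in WT. Their part in the Pramel result was not tested.

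With CtBP present, no member was called after Dux or Dppa2 loss in the genotype table. Pramel7 and Pramel6 had 0 counts in all 4 DuxKO and Dppa2KO libraries of the genotype table. Pramel3 had 3 and 0 counts in DuxKO and 0 in both Dppa2KO libraries. None of the 3 tested members was called in DuxKO against WT, where 17.5% of genes were, or in Dppa2KO against WT, where 16.4% were. Since WT itself held at most 3 counts over the group for each of them, a fall could not have been seen at this depth.

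On the CtbpDKO background, removing Dux left Pramel7 and Pramel6 expressed. Pramel7 had 30 and 42 counts in Ctbp_DuxTKO, or 1.30 and 1.43 CPM, below both CtbpDKO libraries. The ratio was 0.644 (0.479 to 0.86 by counting error). The log2 difference of -0.64 (SE 0.50) did not pass (edgeR adjusted p 0.494), and Pramel7 kept 63.8% of its CtbpDKO mean. Pramel6 stood at 27 and 42 counts, or 1.17 and 1.43 CPM, above both CtbpDKO libraries. Its ratio was 3.00 (1.93 to 4.78 by counting error) and its log2 difference 1.57 (SE 0.69), with an edgeR adjusted p of 0.198. Pramel3, at 4 and 10 counts, overlapped CtbpDKO (log2 difference -0.77, SE 1.05, edgeR adjusted p 0.713). So edgeR called 0 of 3 tested members in Ctbp_DuxTKO against CtbpDKO, where 8.15% of all genes were called, and DESeq2 also called 0. Pramel6 alone had an unadjusted p below 0.05 (0.042). Of the 2-cell genes, 6 of 7 tested ones fell in this comparison. Zscan4c, a gene of the 2-cell stage, went from 9.85 and 13.3 CPM to 0 and 0.130 CPM. Zscan4c, Zscan4f, Usp17le and Zscan4d passed the filter on low counts through CtbpDKO, with 799, 794, 454 and 192 counts there. In any other genotype they had at most 15, 22, 4 and 2 counts. A high level in CtbpDKO was thus a condition of their being tested, and the 6 of 7 is description only.

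Against DuxKO, in which Dux is deleted and CtBP present, Ctbp_DuxTKO showed both genes of the chromosome 2 pair called higher, beside 41% of all genes. Pramel7 was at least 27.2-fold higher (edgeR adjusted p 0.000131) and Pramel6 at least 26.0-fold higher (0.000467), each bound set against a floor of 3 counts over the DuxKO group. Pramel3 had a ratio of 5.29 (1.48 to 28.7) and was not called (edgeR adjusted p 0.198). The interaction of Ctbp and Dux loss, which asks whether the effect of CtBP loss depends on Dux, called 0 of 3 members and 19.5% of all genes. Its edgeR adjusted p was 0.366 for Pramel7 and 0.159 for Pramel6. DuxKO holds 0 counts of both genes in that test and WT holds 2 of each. The effect of Dux loss with CtBP present could thus not be measured, and the test does not answer the question. The 4 primitive endoderm markers all rose in Ctbp_DuxTKO against CtbpDKO, with sums of 42.9 to 46.7 CPM against 15.6 to 16.4 CPM, and their part in the Pramel6 values was not tested.

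Removing Dppa2 on the CtbpDKO background lowered Pramel7 but gave no call for Pramel6. Pramel7 had 4 and 6 counts in DKO_Dppa2KO, or 0.200 and 0.254 CPM, far below both CtbpDKO libraries. It was 9.28-fold lower (4.90 to 19.7), with a log2 difference of -3.19 (SE 0.61) and an edgeR adjusted p of 0.00572. Pramel6 had 15 and 14 counts, or 0.751 and 0.593 CPM, above both CtbpDKO libraries, with a log2 difference of 0.62 (SE 0.71) and an edgeR adjusted p of 0.618. Pramel3 gave 7 and 1 counts and overlapped CtbpDKO (log2 difference -1.22, SE 1.12, edgeR adjusted p 0.518). Thus 1 of 3 tested members was called, beside 15.4% of all genes. In the same comparison 3 of 4 primitive endoderm markers fell, to a sum of 6.7 to 6.96 CPM. Of 3 fibroblast markers tested 1, Thy1, was lower (sums of 4.01 to 4.62 against 11.3 to 11.5 CPM), and of 3 trophoblast markers 1, Gata3, was higher (20.4 to 21.6 against 15.3 to 15.5 CPM). Their part was not tested.

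Pramel7 nevertheless remained above the level of Dppa2KO cells with CtBP present. It was at least 5.48-fold higher in DKO_Dppa2KO than in Dppa2KO (edgeR adjusted p 0.0084), and Pramel6 was at least 15.9-fold higher (0.00167). For Pramel3 the bound was 4.38-fold and the edgeR adjusted p of 0.0631 did not pass. This made 2 of 3 tested members called, beside 30.4% of all genes. The interaction of Ctbp and Dppa2 loss called 0 of 3 members and 8.23% of all genes, with edgeR adjusted p of 0.729 for Pramel7 and 0.295 for Pramel6. Dppa2KO holds 0 counts of both genes in that test.

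The 2 neighbours were counted in different proportions in the Ctbp-deleted genotypes of the genotype table, in a design too small to test this. The share of Pramel6 in the summed Pramel6 and Pramel7 counts needs no scaling between libraries. In CtbpDKO it was 14.1% (exact Clopper-Pearson 95% interval 7.26 to 23.8) and 19.4% (12.1 to 28.6). In Ctbp_DuxTKO it was 47.4% (34.0 to 61.0) and 50% (38.9 to 61.1). In DKO_Dppa2KO it was 78.9% (54.4 to 93.9) and 70.0% (45.7 to 88.1). The 3 genotypes of this table did not overlap in the share, and the mean share was 32.0 percentage points above CtbpDKO in Ctbp_DuxTKO and 57.7 points above it in DKO_Dppa2KO, 2 comparisons that share the CtbpDKO libraries. DKO_Dppa2KO lay 25.8 points above Ctbp_DuxTKO. With 2 libraries against 2, the exact two-sided permutation p of each of the 3 comparisons was 0.333 (0.333 adjusted), the smallest this design allows. The intervals cover counting error only. Libraries of the CtbpDKO time course had shares of 12.5% and 37.8% at day 0 and of 55% and 20.9% at day 18, and 1 of them exceeded both Ctbp_DuxTKO libraries.

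**Figure D2:**
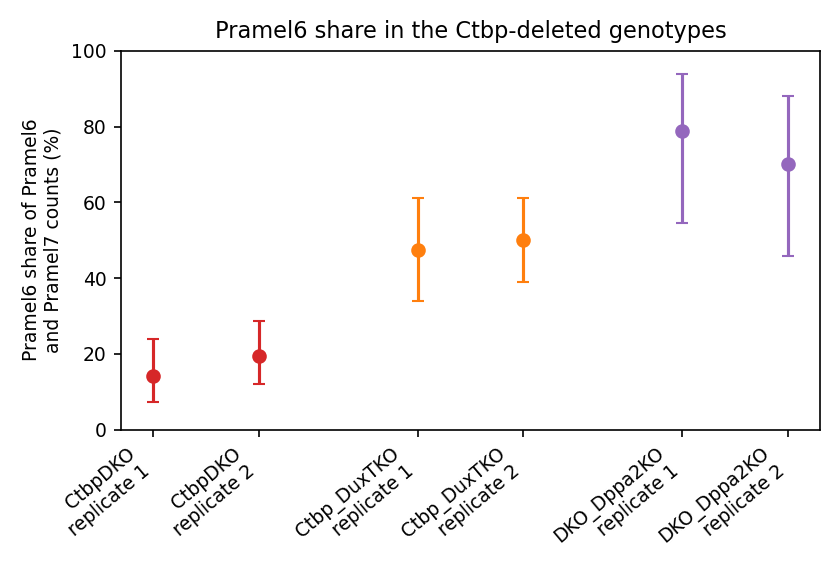
Share of Pramel6 in the summed Pramel6 and Pramel7 counts (percent) in each library of the 3 Ctbp-deleted genotypes; bars are exact 95% Clopper-Pearson intervals of counting error. The share steps up from 14.1% and 19.4% in CtbpDKO to 47.4% and 50% in Ctbp_DuxTKO and to 78.9% and 70.0% in DKO_Dppa2KO.

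The genes around the chromosome 2 pair did not share these calls. Olfr1126, Olfr1127-ps1 and Olfr1123, olfactory receptor genes, had 0 counts in every library of the genotype table. Olfr1124 (2 to 45 counts) and the predicted gene Gm13736 (24 to 63 counts) were tested and called in 0 of the comparisons of that table. Olfr153 gave 6 and 8 counts in CtbpDKO, 2 and 2 in Ctbp_DuxTKO, 2 and 0 in DKO_Dppa2KO and 0 elsewhere, too few to be tested.

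The tables held 36 further genes named as PRAME genes by symbol or RefSeq synonym, many of which have close copies, so reads may be split between them. Of these, 22 had a count in the genotype table and 11 were tested, among them Pramef12os, an antisense gene whose reads cannot be told from those of Pramef12 without a known strand setting. In CtbpDKO against WT 9 of the 11 were called higher and 0 lower, with a median log2 difference of 3.44 against 0.01 over all tested genes, of which 26.1% were called. They included Gm13128 (Pramel30), at 1.29 and 1.31 CPM against 0.101 and 0.130 CPM, with a log2 difference of 3.44 (SE 0.46, edgeR adjusted p 0.000103). Gm12794 (Pramel19) had 41 and 94 counts against 0 and 3, a ratio of 39.7 (13.3 to 195), and Gm13119 (Pramel31) had 34 and 56 counts against 0 and 2. A430089I19Rik (Pramel39) was at least 13.5-fold higher and Pramef25 (Pramel16) at least 14.1-fold higher, both from 0 counts in WT. Gm13101 (Pramel28) was also near 0 in WT. Pramef17 (Pramel14), also low in WT at 0.0335 and 0.196 CPM, differed by 2.85 on the log2 scale. Of the 2 with higher WT levels, Pramef12 (Pramel13) differed by 1.40 and Pramef8 (Pramel12) by 1.72. A430089I19Rik, Gm12794, Gm13101 and Pramef25 passed the filter on low counts through CtbpDKO. Their group counts there were 46, 135, 35 and 48, against at most 0, 6, 13 and 13 in any other genotype. A high level in CtbpDKO was thus a condition of their being tested, and the 9 of 11 and the median are description only.

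Dux loss on the CtbpDKO background gave calls in both directions. A430089I19Rik went from 31 and 15 counts to 0 and 0, and Gm12794 fell by 4.09 on the log2 scale (edgeR adjusted p 0.0431), which left 5.26% of its mean. Gm13128, by contrast, rose by 1.35 (SE 0.33, edgeR adjusted p 0.0247) and Pramef12 by 0.46 (0.0461). Pramef17 stood at 1.52 and 4.14 CPM against 0.854 and 0.866 CPM and was not called (edgeR adjusted p 0.0727). Thus 2 of 11 were called lower and 2 higher in Ctbp_DuxTKO against CtbpDKO, where 8.15% of all genes were called, and 8 of 11 were higher in Ctbp_DuxTKO than in DuxKO, where 41% were. Of the Pramel members, Pramel7 and Pramel6, at 63.8% and 300% of their CtbpDKO means, lay within the range of the other tested PRAME genes. Above 63.8% were Pramef12os (433%), Pramef17 (329%), Gm13128 (255%), Pramef12 (137%) and Pramef8 (86.3%), and below it were Pramel3 (57.3%), Pramel1 (52%), Gm13101 (47%), Pramef25 (33.1%), Gm13119 (29%), Gm12794 (5.26%) and A430089I19Rik (0%). These percentages were not tested against each other and carry counting error. Pramef12os rests on 7 counts in CtbpDKO and 24 in Ctbp_DuxTKO. Gm13101, Pramef25, Gm12794 and A430089I19Rik passed the filter on low counts through CtbpDKO, the group by which they are divided.

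**Figure D3:**
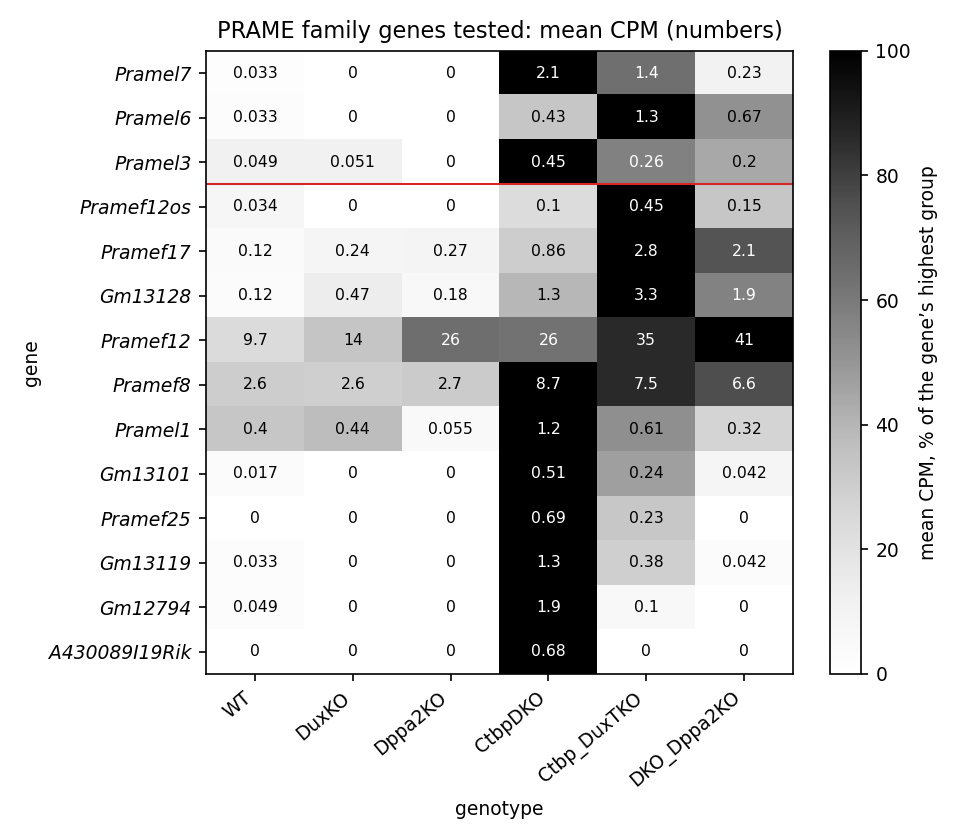
Mean CPM (printed in each cell, 2 libraries a genotype) of the 3 tested Pramel members, above the red line, and of the 11 other PRAME genes tested in the genotype table; grey shows the mean as a percent of the gene's highest genotype. A430089I19Rik and Gm12794 keep 0% and 5.26% of their CtbpDKO mean in Ctbp_DuxTKO, while Pramel7 keeps 63.8% and Pramel6 reaches 300%.

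Dppa2 loss on the CtbpDKO background lowered 4 of the 11, namely A430089I19Rik, Gm12794, Gm13119 and Pramef25. It raised Pramef12 by 0.67 on the log2 scale, and 15.4% of all genes were called in this comparison. Gm13119 had 0 and 2 counts left and the other 3 had 0. Those 3 had passed the filter on low counts through CtbpDKO. In DKO_Dppa2KO against Dppa2KO 4 of the 11 were called higher, beside 30.4% of all genes. Without CtBP deletion, Dppa2KO against WT gave Pramef12 higher by 1.44 and Pramel1 lower, at a log2 difference of -2.74. There 16.4% of all genes were called.

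In the time course, Pramel7 fell while the Ctbp2 transcript was high and came back when it was low. Ctbp2 averaged 59.1 CPM at day 0, 558 at day 3, 303 at day 9, 47.1 at day 12 and 53.6 at day 18, and its steps of 3.24, -0.88 and -2.69 on the log2 scale up to day 12 were called. Pramel7 had 42 and 28 counts at day 0, 6 and 2 at day 3, 4 and 9 at day 9, 26 and 42 at day 12, and 18 and 53 at day 18. All 4 libraries of days 3 and 9 lay below all 6 of days 0, 12 and 18. The group means were 1.67 ± 0.594, 0.198 ± 0.135, 0.270 ± 0.174, 1.48 ± 0.00102 and 1.39 ± 0.526 CPM (SD, n = 2 each).

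From day 0 to day 3 Pramel7 was 8.25-fold lower (3.97 to 19.9 by counting error), with a log2 difference of -3.03 (SE 0.66) and an edgeR adjusted p of 0.0179, beside 4.99% of 20612 genes called. The call was lost without day 0 replicate 1 (0.116), day 3 replicate 1 (0.0599) or day 3 replicate 2 (0.133). From day 3 to day 9 it did not pass (log2 difference 0.39, edgeR adjusted p 0.897), in a comparison with 1.12% of genes called. From day 9 to day 12 it was 5.73-fold higher (3.14 to 11.3), with a log2 difference of 2.47 (SE 0.62) and an edgeR adjusted p of 0.0416, beside 3.84% of genes called. This call was lost with the replicate number as a block (0.0608), with only the 2 groups in the fit (0.0551) and with any single library of days 9 and 12 left out (highest 0.263). Pramel7 was not called at day 18 against day 12 (log2 difference -0.07, edgeR adjusted p 0.978, 0.82% of genes called) or against day 0 (-0.24, SE 0.52, 0.904, 0.514% of genes called).

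**Figure D4:**
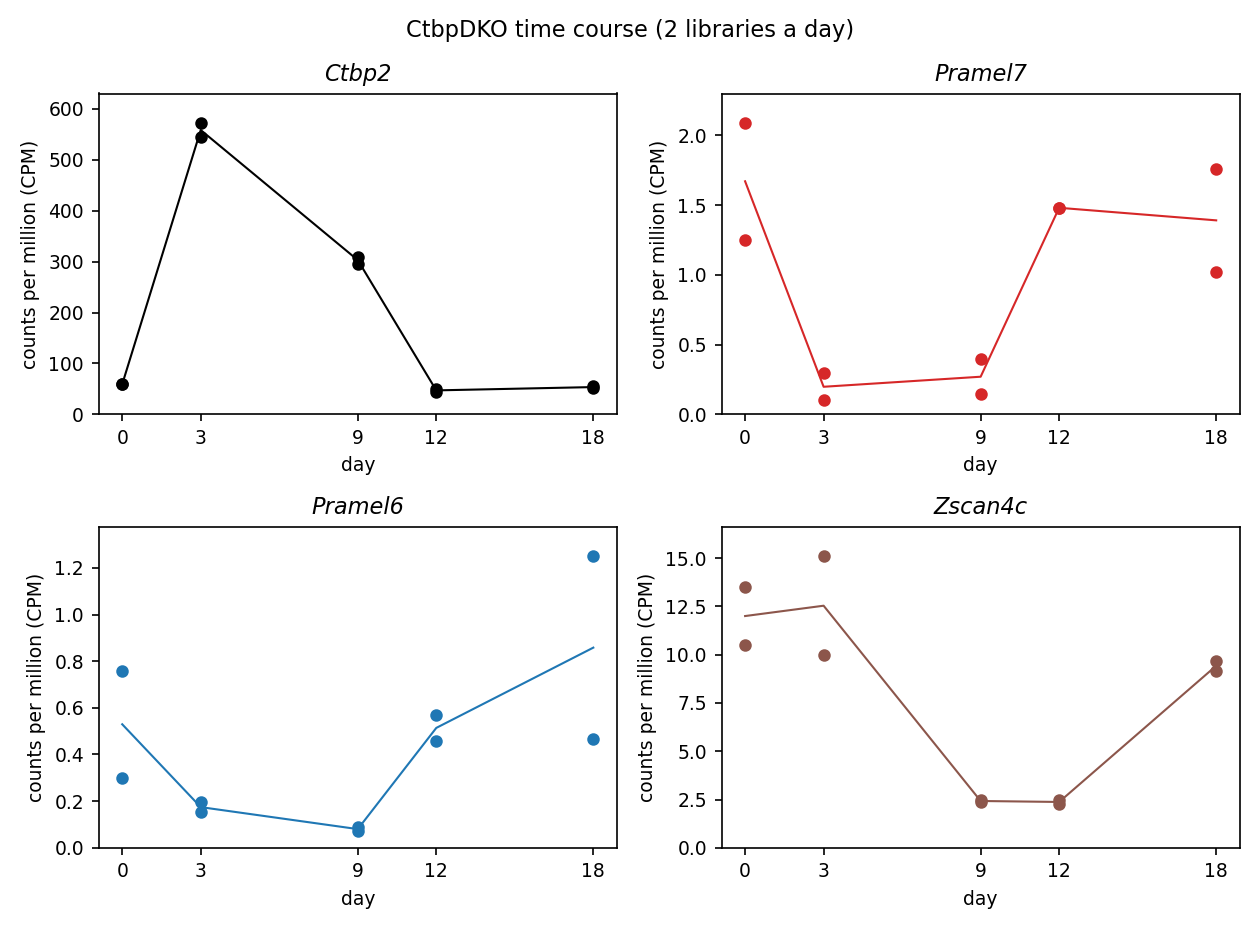
Levels (CPM, TMM-scaled) of Pramel7, Pramel6, Ctbp2 and Zscan4c at days 0, 3, 9, 12 and 18 of the time course in CtbpDKO cells; points are libraries, 2 a day, and lines join the means. Pramel7 is low at days 3 and 9, when Ctbp2 averages 558 and 303 CPM, whereas Zscan4c stays at 12.6 CPM at day 3 and is low at days 9 and 12.

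Pramel6 followed the same days at lower counts. It had 6 and 17 counts at day 0, 4 and 3 at day 3, 2 and 2 at day 9, 10 and 13 at day 12, and 22 and 14 at day 18. Every library of days 3 and 9 lay below every library of the other days. No step passed in edgeR: the log2 differences were -1.58 (SE 0.85, adjusted p 0.341) to day 3, -1.08 (0.746) to day 9, 2.60 (SE 0.92, 0.157) to day 12 and 0.70 (0.764) to day 18, and day 18 against day 0 gave 0.64 (0.783). Its share of the pair's summed counts was 12.5% and 37.8% in the 2 libraries of day 0, 40% and 60% at day 3 on 15 counts in all, 33.3% and 18.2% at day 9 on 17 counts, 27.8% and 23.6% at day 12, and 55% and 20.9% at day 18. Replicates of days 0, 3 and 18 lay far apart in this share. Pramel3 had at most 6 counts in any library and was not tested, Pramel5 had 2 counts in 1 library of day 3 and 3 in 1 of day 12, and Pramel4 had 0 throughout. So 2 of the 5 members were tested, and Pramel7 was the 1 called, in 2 of the 5 comparisons.

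Of the 8 tested 2-cell genes, 1 (Tcstv3) was called lower from day 0 to day 3, 3 lower from day 3 to day 9, 0 from day 9 to day 12 and 3 higher from day 12 to day 18. The 3 were Zscan4c, Zscan4f and Usp17le in both of those steps, in which Pramel7 was not called. Zscan4c averaged 12 CPM at day 0 and 12.6 at day 3 (log2 difference 0.06, edgeR adjusted p 0.911), then 2.42 at day 9, 2.37 at day 12 and 9.42 at day 18. It was called lower from day 3 to day 9 (log2 difference -2.37) and higher from day 12 to day 18 (1.98). Among other PRAME genes, 2 of 10 tested fell from day 0 to day 3, Pramef12 by 1.29 and Pramef17 by 2.10 on the log2 scale, and Pramef12 rose again by 1.18 from day 9 to day 12, beside 4.99% and 3.84% of all genes called in those steps. Pramef25 behaved otherwise, at 1.43 and 1.64 CPM on day 0 and 0.867 and 1.37 CPM on day 3, then 0 counts at day 9, at least 18.8-fold lower, and at least 5.11-fold higher again at day 12. None of the 10 was called at day 18 against day 12 or day 0. Dppa2, whose loss went with lower Pramel7 in the genotype table, averaged 85.6, 58.3, 52.3, 78.3 and 91.0 CPM over the 5 days, and its steps of -0.55 to day 3 and 0.58 to day 12 were called. Markers of primitive endoderm summed to 10.1 to 10.2 CPM at day 0, 7.23 to 10.1 at day 3, 10.8 to 11 at day 9, 16.1 to 18.3 at day 12 and 22.5 to 29.9 at day 18. Markers of trophoblast summed to 20.4 to 21.3, 8.87 to 9.77, 13 to 14.4, 21.8 to 24.6 and 21.2 to 22 CPM over the 5 days, and markers of fibroblasts to 9.96 to 11.7, 6.63 to 6.65, 5.38 to 7.37, 14.6 to 16.5 and 18.7 to 20.5 CPM, with Elf5 at 0 at day 3 and Postn at 0 on every day but day 12. Both of these sums were lower on days 3 and 9 than on days 0 and 12, as Pramel7 was. Of 3 trophoblast and 2 fibroblast markers tested, Eomes and Thy1 were called lower from day 0 to day 3 and higher from day 9 to day 12, and 1 of 4 primitive endoderm markers was called higher from day 9 to day 12. The part of these markers in the Pramel7 result was not tested.

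In the Pramel7 table the transgene set the level of Pramel7 itself. WT held 2, 2, 4 and 2 counts of Pramel7, DuxKO 0 and 0, P7OE 435 and 431, and DuxKO_P7OE 537 and 588. In CPM these were 0.0757 to 0.154 in WT, 14 and 26.2 in P7OE, and 49.3 and 56.7 in DuxKO_P7OE. Both overexpressing groups stood clear of all others, and the 4 libraries did not overlap between the 2 groups. P7OE exceeded WT by 7.56 on the log2 scale (SE 0.38, edgeR adjusted p 3.63e-07), beside 19.9% of 20161 genes called. DuxKO_P7OE exceeded DuxKO at least 808-fold (edgeR adjusted p 5.22e-07), beside 21.4% of genes. The level in CtbpDKO, from a separately scaled table, was 2.13 ± 0.116 CPM (SD, n = 2), under all 4 of these libraries.

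The 2 overexpressing groups carried unequal amounts of Pramel7. DuxKO_P7OE had a log2 difference of 1.40 (SE 0.30) over P7OE, which edgeR did not call (adjusted p 0.166) in a comparison with 0.0298% of genes called. DESeq2 gave 0.00773, edgeR without the filter on low counts 1.24e-06, and edgeR with a replicate block 0.0116. The interaction of Pramel7 overexpression and Dux loss called 0 of the tested members and 7.5% of genes, with an edgeR adjusted p of 0.0559 for Pramel7. Any other difference between P7OE and DuxKO_P7OE thus comes with this difference in Pramel7, and the share of each cannot be told apart.

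**Figure D5:**
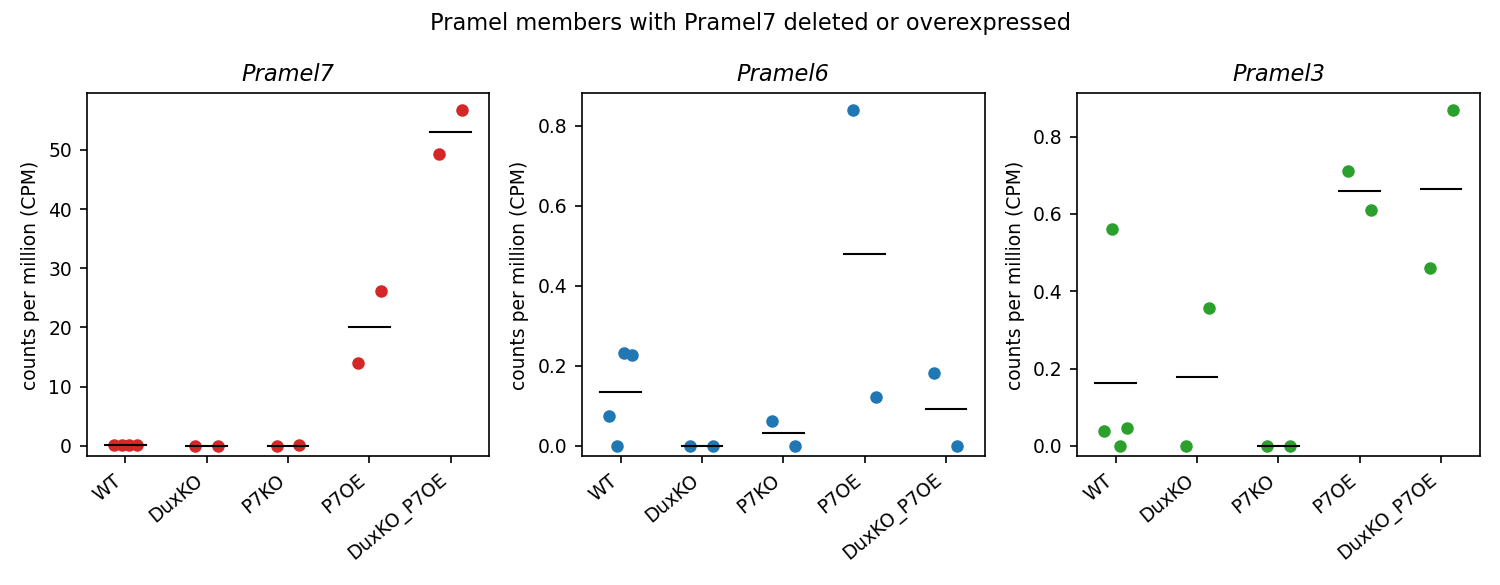
Level (CPM, TMM-scaled, linear axes that differ between panels) of Pramel7, Pramel6 and Pramel3 in the Pramel7 table; points are libraries, 4 for WT and 2 for each other group, and bars are means. Pramel7 reaches 14 and 26.2 CPM in P7OE and 49.3 and 56.7 CPM in DuxKO_P7OE, while Pramel6 and Pramel3 stay below 1 CPM.

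The P7KO label could not be checked by transcript level. Pramel7 had 0 and 3 counts in P7KO, replicate 1 below all 4 WT libraries and replicate 2 inside their range. The ratio to WT was 0.492 (0.087 to 1.91), with an edgeR adjusted p of 0.598. None of the tested members was called in P7KO against WT, where 9.48% of genes were. In DuxKO against WT of this table Pramel7 was at least 1.54-fold lower by its counts, with an unadjusted p of 0.0286 and an edgeR adjusted p of 0.116 that did not pass. Pramel6, with 13 counts over the 4 WT libraries and 0 in DuxKO, was at least 2-fold lower by the same floor and was not tested. edgeR called 0 of the 2 tested members there, beside 16.7% of genes.

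The other members did not follow the Pramel7 transgene as a group. Pramel6 gave 2, 0, 6 and 5 counts in the WT libraries, 26 and 2 under P7OE, and 2 and 0 in DuxKO_P7OE, and it did not pass the filter on low counts. The 26 counts of P7OE replicate 1 made the ratio to WT 4.51 (2.26 to 9.48), and P7OE replicate 2 lay within the WT range. The share of Pramel6 in the pair's counts was 5.64% (26 of 461) and 0.462% (2 of 433) in the P7OE libraries and 0.371% (2 of 539) and 0% (0 of 588, exact 95% upper bound 0.625%) in the DuxKO_P7OE libraries. How reads shared by the 2 genes were counted was not tested. Pramel3 reached 22 and 10 counts with overexpression (0.710 and 0.609 CPM) and 1, 14, 0 and 1 in WT, with a log2 difference of 2.00 (SE 1.12, edgeR adjusted p 0.24). Both P7OE libraries lay above all 4 WT libraries, and WT replicate 4 (0.562 CPM) lay close to them. Without that library the log2 difference was 4.38 (edgeR adjusted p 0.0238), and with WT replicates 5 and 6 only it was 4.63 (0.0356). In DuxKO_P7OE Pramel3 had 5 and 9 counts, against 0 and 10 in DuxKO, with a log2 difference of 1.71 (SE 1.43, edgeR adjusted p 0.427). It had 0 counts in both P7KO libraries (edgeR adjusted p 0.227). Pramel4 had 0 counts in the table and Pramel5 had 2, both in DuxKO_P7OE replicate 1.

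Among the other PRAME genes, 5 of 8 tested were higher in P7OE than in WT and 1 lower, beside 19.9% of all genes called. Gm13128 had 3.35 and 3.52 CPM against 0.530 to 0.924 CPM (log2 difference 2.23, SE 0.32, edgeR adjusted p 0.00048), and Pramef17 differed by 1.98 (0.015). A430089I19Rik was at least 23.7-fold higher and Gm12794 had a ratio of 22.0 (7.98 to 84.4), and Gm7978 was the fifth. A430089I19Rik and Gm7978 passed the filter on low counts through P7OE, with 34 and 36 counts there. They had at most 1 and 6 counts in any other group, so the 5 of 8 is description only. Pramef8 was lower, at -0.96. In DuxKO_P7OE against DuxKO, where 21.4% of all genes were called, 3 of 8 were higher: Gm13128 by 3.65 (SE 0.50, edgeR adjusted p 0.000317), Pramef12 by 0.93 and Pramef17 by 2.54. Gm12794 had 6 counts in 1 DuxKO_P7OE library and 0 in the other. In P7KO against WT Pramef12 and Pramef8 were lower, at -0.73 and -1.41. Gm13128 and Pramef17 were thus called higher in P7OE and DuxKO_P7OE as well as in CtbpDKO. Against WT replicates 5 and 6 only, Pramef17 was not called in P7OE, and against replicates 3 and 4 only, Gm12794 was not. The 4 primitive endoderm markers were all higher in P7OE (sums of 27.1 to 27.7 CPM against 3.63 to 4.14 in WT) and in DuxKO_P7OE (26.0 to 26.2 against 3.08 to 3.21 in DuxKO). Trophoblast markers were lower: Cdx2, 1 of 3 tested, in P7OE (sums of 10.9 to 11.6 against 14.7 to 24.9 CPM), and Cdx2 and Gata3 in DuxKO_P7OE against DuxKO (6.24 to 11.9 against 21.8 to 23.4 CPM). Of 2 fibroblast markers tested, Thy1 was higher in DuxKO_P7OE than in DuxKO (sums of 3.28 to 3.95 against 0.251 to 0.728 CPM). Their part was not tested.

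The transcripts of the UHRF1 pathway, in which PRAMEL7 acts at the protein level, did not move as a unit. The shares of all genes called, given above, were 19.9% for P7OE against WT, 21.4% for DuxKO_P7OE against DuxKO, 9.48% for P7KO against WT and 26.1% for CtbpDKO against WT, and the list counts that follow stand beside them. The WT libraries of the Pramel7 table fell into 2 pairs on some of these genes: Tet1, a methylcytosine dioxygenase, had 254 and 264 CPM in replicates 3 and 4 and 645 and 853 CPM in replicates 5 and 6, and the labels do not say how these pairs relate to the other groups. Uhrf1 itself had 324 ± 21.5 CPM in WT (SD, n = 4) and 340 ± 10.8 CPM in P7OE (SD, n = 2), with a log2 difference of 0.07 (SE 0.12, edgeR adjusted p 0.727). RNA counts do not measure the protein. Of the 10 genes of the list, P7OE against WT called 2 higher, Dnmt3a by 1.17 and Tet2 by 0.96, and 2 lower, Dnmt3b at -1.35 and Dppa3 at -1.91. Dnmt3a and Dnmt3b encode the de novo DNA methyltransferases, and Dppa3 encodes a factor that also counteracts UHRF1. In DuxKO_P7OE against DuxKO 3 were higher (Dnmt3a 1.46, Dnmt3b 1.80, Dnmt3l 2.91) and 2 lower (Uhrf2 and Dppa3). Dnmt3a rose and Dppa3 fell in both comparisons, while Dnmt3b had opposite signs from unequal baselines. Dnmt3b averaged 318 CPM in WT and 46.2 CPM in DuxKO, and 125 CPM in P7OE and 160 CPM in DuxKO_P7OE. DuxKO_P7OE against P7OE called 0 of the 10 genes, beside 0.0298% of all genes. P7KO against WT called Uhrf1 (0.40), Dnmt1 (0.63) and Dppa3 (1.40) higher and Dnmt3a (-1.73), Dnmt3b (-2.05) and Dnmt3l (-1.27) lower. With WT replicates 3 and 4 only, P7OE against WT called 6 higher and 2 lower and P7KO against WT 6 and 3. With WT replicates 5 and 6 only these were 2 and 3, and 2 and 3. The shares of all genes above are for all 4 WT libraries. With WT replicates 3 and 4 only, the count of all genes called also rose by over 1.5 times in both comparisons. The Dnmt1 call in P7KO was lost with replicates 5 and 6 only, and Tet1 in P7OE was called higher (0.91) with 1 pair and lower (-0.60) with the other.

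Where Pramel7 rose without a transgene, CtbpDKO against WT called 4 of the same 10 genes higher and 0 lower: Uhrf1 by 0.37, Dnmt3a by 1.07, Dnmt3b by 1.67 and Dnmt3l by 1.60. In the time course the list moved in both directions: day 3 against day 0 called 2 higher (Dnmt3a by 1.81 and Uhrf2 by 0.49) and 3 lower (Dnmt3b at -0.54, Dppa3 at -1.30 and Tet2 at -0.59), with a median of -0.17. Day 12 against day 9 called Dnmt3b (0.88) and Tet2 (0.48) higher and Dnmt3a (-2.06) lower. Of the 5 Cullin 2 ligase genes, CtbpDKO against WT called 2 higher and 1 lower. P7OE against WT called Cul2, the scaffold, higher by 0.51, and Rbx1, the RING subunit, and Vhl, another substrate receptor, lower at -0.37 and -0.75. P7KO against WT called 0 of the 5. The Cul2 call was lost with WT replicates 5 and 6 only (0.36). These counts stand beside medians of -0.11 in CtbpDKO and -0.37 in P7OE for the list and 0.01 and -0.01 for all genes.

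For the 11 LIF, STAT3 and naive pluripotency genes, CtbpDKO against WT called 2 higher and 5 lower. Stat3 itself was lower, at -1.24, and Tbx3, a naive factor, was higher by 1.71. P7OE against WT called 5 higher (Klf4 1.16, Klf5 0.58, Tbx3 1.59, Esrrb 0.51 and Zfp42 0.72) and 1 lower, Socs3, a STAT3 target, at -0.68. In DuxKO_P7OE against DuxKO 0 were higher and 4 lower, with Klf4 at -0.81 and Socs3 at -1.84. The baselines differed: DuxKO of this table had 7 of the 11 called higher than WT, beside 16.7% of all genes. Klf4 averaged 31.3 CPM in WT, 120 in DuxKO, 70 in P7OE and 68.3 in DuxKO_P7OE. DuxKO_P7OE against P7OE called 0 of the 11, beside 0.0298% of all genes. P7KO against WT called 5 higher and 0 lower. With WT replicates 3 and 4 only these counts were 7 higher and 1 lower for P7OE and 9 and 0 for P7KO, and with replicates 5 and 6 only 3 and 3 for P7OE and 4 and 1 for P7KO. Klf5 and Esrrb were not called in P7OE with replicates 5 and 6 only. All comparisons of P7OE and P7KO with WT share the 4 WT libraries. Of the 2-cell genes, 4 of 4 tested were higher in P7OE than in WT, beside 19.9% of all genes called. Zscan4d passed the filter on low counts through P7OE, with 70 counts there and at most 14 in any other group. The 4 of 4 is thus description only. None of the 4 was called by edgeR in DuxKO_P7OE against DuxKO. Zscan4c and Zscan4f had 0 counts in both of these groups. Zscan4d had 1 count over DuxKO and Usp17le 4 over DuxKO_P7OE, each with 0 in the other group.

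The genes whose levels ran most closely with each member were ranked by Pearson correlation of log2 CPM over the 12 libraries of the genotype table, as a description with no test, since these libraries share genotypes. For Pramel7 they were Pik3cd (0.985), Pcsk6 (0.976), Parm1 (0.976), Nectin1 (0.974) and Elf4 (0.972). For Pramel6 they were Isoc1 (0.982), Tmc6 (0.98), Anxa2 (0.98), Dusp3 (0.979) and Pnma5 (0.977). The 2 lists of 5 held no gene in common, and the correlation of Pramel6 with Pramel7 was 0.865. Pramel3 ran closest with Ocrl (0.951), Abcc10 (0.942) and Fam177a (0.941). Over the 10 libraries of the time course, Pramel7 ran closest with Phlda2 (0.971), Rbfaos (0.968) and Rpp25 (0.967), and Pramel6 with Llgl2 (0.965), Acads (0.956) and L1cam (0.955), while the 2 members correlated at 0.722.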

How the data were processed

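RNA-seq counts of 34 libraries were read from 3 count tables. The values are raw counts per gene, deposited by the authors. Per the submitters' processing notes the tools were Trim Galore, HISAT2 and featureCounts, with genome build mm10; their versions, the annotation, the strand setting and the treatment of reads that match several copies are not given in the sources used here. Per the labels' protocols, PureLink columns gave the total RNA and a stranded Collibri kit the libraries. The 6 reduced-representation bisulfite libraries were not analysed here.

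Each table was fitted on its own in R 4.3.3 with edgeR 4.0.16 (TMM scaling, filterByExpr, 1 term a group, quasi-likelihood F test, prior count 0.125), all libraries of a table sharing 1 estimate of the spread. Adjusted p is Benjamini-Hochberg over all tested genes, called below 0.05. DESeq2 1.42.0 served as an alternative, and the procedure was tested on simulated data. Ratios are of CPM, with exact 95% counting intervals. A group at 0 counts was set to 3 counts over the group, which gives a lower bound. The members hold few counts in most libraries, which limits the precision of their values. Intervals cover counting error only.

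The 5 members are named in every comparison. Other PRAME genes and genes of the pathway lists are named where called, and the 5 genes most correlated with a member (log2 CPM, prior count 2) are named for members with a group mean of at least 10 counts, among genes with one of at least 50 whose symbol is not a predicted gene, clone name or date. The members and the lists were chosen with earlier results of these data known. Levels were not compared between genes, since no exon lengths were used. Start-site sequences are from RefSeq.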

Additional observations from a re-analysis of the deposited data

Results flagged for a closer look

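Pramel3 in WT replicate 4 of the Pramel7 table stood at 0.562 CPM, apart from the other 3 WT libraries, with a gap of 0.919 of the group's whole range. The check covered 3 members in 1 group of 4 libraries, and chance marks about 1 in 20 groups.

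Gm13128 (Pramel30) moved in opposite directions in the 2 comparisons of DuxKO with WT. In the genotype table every DuxKO library was higher (16 and 12 counts against 3 and 4), with a log2 difference of 1.99 (edgeR adjusted p 0.0177). In the Pramel7 table every DuxKO library was lower (2 and 6 counts against 14, 16, 24 and 18), with a log2 difference of -2.05 (edgeR adjusted p 0.00984). Pramef12 (Pramel13) did the same, with log2 differences of 0.50 (edgeR adjusted p 0.0228) and -1.29 (0.000362). The difference between the 2 tables was not tested.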

How the results depend on the processing

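Of 269 member values recomputed under another setting, 262 kept their direction and 7 reversed, all 7 with 1 library left out and none of them called. Pramel7 from day 3 to day 9 ranged from -0.43 to 1.32 over the left-out libraries, with -0.16 among the reversed values. Pramel7 at day 18 ranged from -0.53 to 0.25 against day 12 and from -0.69 to 0.17 against day 0, the latter also reversing to 0.08. Pramel6 ranged from -0.13 to 1.29 against day 12 and from -0.19 to 1.46 against day 0, the lowest value in each being without day 18 replicate 1. The 11 called member values stayed called in 100 of 111 alternatives and reversed in 0.

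The count of members called moved by over 1.5 times as follows. With the replicate block it was 1 for DuxKO_P7OE against P7OE (0 otherwise) and 0 for day 12 against day 9 (1 otherwise). With only the groups compared it was 1 for DKO_Dppa2KO against Dppa2KO (2 otherwise), 1 for the interaction of P7OE and Dux loss (0 otherwise) and 0 for day 12 against day 9. In the first of these Pramel7 did not pass the filter on low counts, and it stayed called in the 9 settings that tested it. DESeq2 and edgeR without the filter each gave 1 for DuxKO_P7OE against P7OE and 1 for that interaction. WT replicates 5 and 6 only gave 2 for P7OE against WT (1 otherwise). Leaving out 1 library at a time gave 1 to 2 for CtbpDKO against WT, 1 to 2 for P7OE against WT, 0 to 1 for the interaction of P7OE and Dux loss, 0 to 1 for day 3 against day 0 and 0 to 0 for day 12 against day 9. The cause of the other moves was not tested. In the 12 comparisons with 0 members called by edgeR, an unadjusted p below 0.05 was reached by 1 member in 4: Pramel6 in Ctbp_DuxTKO against CtbpDKO, and Pramel7 in DuxKO against WT of the Pramel7 table, in DuxKO_P7OE against P7OE and in the interaction of P7OE and Dux loss. DESeq2 called the last 2.

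Same-numbered replicates did not deviate together: over 29 pairs of groups the correlations of their differences ran from -0.1 to 0.09. A batch shared by both replicates of a group would not show in these correlations.

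Counts of all genes called moved further. For P7OE against WT (4003) WT replicates 3 and 4 only gave 6124. DuxKO against WT in the Pramel7 table (3361) gave 2104 with only the groups compared. For DuxKO_P7OE against P7OE (6), DESeq2 gave 149, no filter 350, the replicate block 333 and only the groups compared 63. For P7KO against WT (1911), WT replicates 3 and 4 only gave 4693 and only the groups compared 1073. The interaction of P7OE and Dux loss (1512) gave 2860 with the block, 3184 with WT replicates 3 and 4 only and 2763 with WT replicates 5 and 6 only. Without the filter the steps to day 3, day 9 and day 12 (1029, 230 and 791) gave 1634, 789 and 1361, and DESeq2 gave 394 for day 9. For day 18 against day 12 (169) the values were 267 with DESeq2, 652 without the filter, 112 with the block and 60 with only the groups compared. For day 18 against day 0 (106) they were 224, 566 and, with only the groups compared, 40. Leaving out 1 library moved 60 of 100 such counts by over 1.5 times.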

Other observations

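Several PRAME genes too low to be tested had counts in CtbpDKO and none in Ctbp_DuxTKO. B020004J07Rik had 9 and 6 counts in CtbpDKO, Pramef6 had 12 and 8, and Gm6509 had 8 and 5, and each had 0 and 0 in Ctbp_DuxTKO. These 3 were picked after their values were seen. Olfr153, an olfactory receptor gene near the chromosome 2 pair, reached 14 counts in 1 library of the time course, and it was called in 0 of the comparisons there.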
